A study of Rattus norvegicus with 49 samples.

Results

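The immediate early genes described here are Fos, Fosb, Jun, Junb, Egr1, Atf3, Ier2, Ier3, Nr4a1 and Dusp1, chosen by name and measured in the rat thyroid. A member was taken from the array where the RefSeq accession of a probe belonged to one of these symbols. By that rule 9 of the 10 genes were measured, each by 1 probe, out of 15154 genes matched on the array, and Fosb had no matched probe. The thyroids came from male Sprague Dawley rats, 1 rat per array and 49 arrays in all. Rats received 131I, a radioisotope that the thyroid takes up, by intravenous injection at 5 weeks of age (young) or 17 weeks of age (adult) and were killed 3, 6 or 9 months later. Young rats were given 50 kBq and killed at each of these times, or 0.5, 5 or 500 kBq and killed at 9 months, and adult rats were given 50 kBq and killed at each time. Untreated controls were 4, 7, 10 or 13 months old. Each exposed group was set against the controls of the same age, so adult rats at 9 months were compared with controls of 13 months. There were 4 rats per group, but 3 each for young 5 kBq, controls of 7 months and controls of 13 months. The samples were whole pieces of tissue, in which fewer cells of a type and less RNA per cell cannot be told apart.

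Immediate early genes are transcribed within minutes of a stimulus, such as a growth factor, cAMP signalling, stress or tissue damage, because the factors that switch them on are already present in the resting cell. Their messages are short-lived, and many of their proteins are transcription factors that act on a later set of genes. In the thyroid they respond to thyrotropin, and they also respond to handling and ischaemia in many tissues. Fos and Fosb encode partners of Jun and Junb in the AP-1 transcription factor. Egr1 is a zinc finger transcription factor of the early growth response family, Atf3 a stress-induced factor of the ATF/CREB family, and Nr4a1 an orphan nuclear receptor. Dusp1 is a phosphatase that switches off MAP kinases, Ier2 a nuclear regulator and Ier3 a regulator of cell survival.

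The promoters of the measured members with a reference entry are printed here, since promoters can hold sites through which such stimuli act. RefSeq entries in the GRCr8 build were found for 6 of the 10 genes, among them Fosb, and none for Fos, Jun, Atf3 and Ier3. Each sequence is the 250 bases before the annotated start on the + strand, read 5′ to 3′, from chr10:17184603-17184852 for Dusp1, chr7:134259888-134260137 for Nr4a1, chr19:40080876-40081125 for Junb, chr19:40399123-40399372 for Ier2 and chr18:26736828-26737077 for Egr1. Capitals mark TGACG or its complement CGTCA, the core of the cAMP response element, and also TGACGTCA, the CArG box bound by serum response factor, TATAAA and, in Nr4a1, the Egr site GCGGGGGCG on the other strand.
Dusp1: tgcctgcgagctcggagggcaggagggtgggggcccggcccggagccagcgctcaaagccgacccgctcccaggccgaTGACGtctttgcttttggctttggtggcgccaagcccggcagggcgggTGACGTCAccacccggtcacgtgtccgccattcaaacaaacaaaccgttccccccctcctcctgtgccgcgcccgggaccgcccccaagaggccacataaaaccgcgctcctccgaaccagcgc
Nr4a1: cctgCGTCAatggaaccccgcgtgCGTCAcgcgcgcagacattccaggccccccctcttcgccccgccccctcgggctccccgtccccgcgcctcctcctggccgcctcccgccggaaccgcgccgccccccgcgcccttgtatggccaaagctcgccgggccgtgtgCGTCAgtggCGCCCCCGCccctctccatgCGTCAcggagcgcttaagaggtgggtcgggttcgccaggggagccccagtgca
Junb: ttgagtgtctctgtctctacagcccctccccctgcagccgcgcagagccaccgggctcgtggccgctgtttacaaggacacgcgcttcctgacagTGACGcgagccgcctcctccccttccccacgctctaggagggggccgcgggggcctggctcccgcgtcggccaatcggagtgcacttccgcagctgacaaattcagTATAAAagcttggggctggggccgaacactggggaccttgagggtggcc
Ier2: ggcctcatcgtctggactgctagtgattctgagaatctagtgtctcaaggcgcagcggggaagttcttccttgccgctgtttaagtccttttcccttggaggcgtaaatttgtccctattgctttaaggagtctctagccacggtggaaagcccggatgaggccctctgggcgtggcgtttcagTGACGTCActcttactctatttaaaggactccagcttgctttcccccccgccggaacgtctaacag
Egr1: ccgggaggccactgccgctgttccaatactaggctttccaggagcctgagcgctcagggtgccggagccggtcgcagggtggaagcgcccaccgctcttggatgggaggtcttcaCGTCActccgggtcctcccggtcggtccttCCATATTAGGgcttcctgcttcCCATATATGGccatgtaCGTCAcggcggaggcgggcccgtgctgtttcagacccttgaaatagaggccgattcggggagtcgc

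The TGACG core was in 5 of the 6 promoters, against 18.2% of 33469 rat promoters of the same length searched on both strands. The full element TGACGTCA, which contains the core, was in Dusp1 and Ier2 and in 1.59% of all promoters. Counted from the start it began at base -124 in Dusp1 and at base -66 in Ier2. Nr4a1 held 4 separate cores and an Egr site, a sequence found in 2.45% of promoters. Egr1 alone of the 6 held the CArG box, with 2 copies that began at bases -105 and -83, against 1.5% of promoters with at least 1. TATAAA was in Junb and Fosb and in 12.9% of promoters, and the AP-1 sequence TGAGTCA was in none of the 6 and in 4.05% of promoters. These matches describe letters in the windows and no binding was measured.

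**Figure D1:**
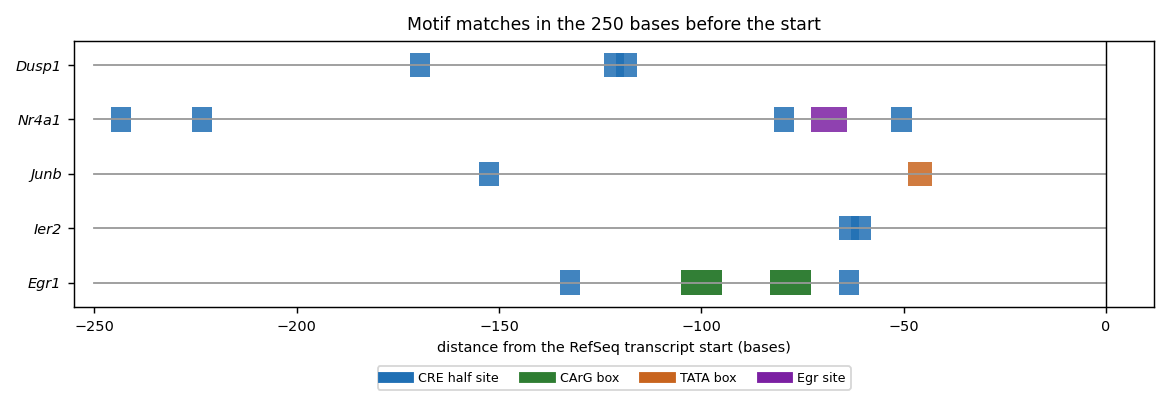
Positions of the TGACG core, the CArG box, TATAAA and the Egr site in the 250 bases before the annotated start of Dusp1, Nr4a1, Junb, Ier2 and Egr1 (x axis, distance from the start in bases; 1 row per gene, 1 colour per motif). Nr4a1 carries 4 TGACG cores, and Dusp1 and Ier2 each carry the full cAMP response element, drawn as overlapping cores.

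Levels are given as log2 of the background-subtracted signal minus the 75th percentile of the same array, so 0 is the brightness of the 75th percentile spot and 1 unit is a doubling. They compare arrays for 1 probe and not probes with each other. Ier2, Ier3, Jun, Junb and Nr4a1 were well above background on all 49 arrays, and Fos, Egr1, Atf3 and Dusp1 on 48. The exception was replicate 2 of young 50 kBq at 3 months, a dim array with 43.1% of its spots well above background against 69.2% to 82.5% on the others. Replicate 3 of the same group and replicate 2 of the controls of 7 months stood apart from their label. Their mean deviation over 8 thyrocyte markers was -6.97 and -7.58 log2 units from the median array, while the other 47 arrays lay between -1.43 and 0.96. Thyroglobulin, the main product of the thyrocyte, was at 0.14 and -0.69 on these arrays against a median of 7.15. In addition, replicates 1 and 2 of the controls of 13 months were the most alike of all 1176 pairs of arrays (SD of their difference 0.175 over 10066 probes, against a median of 0.534 within groups). Replicates 1 and 2 of adult 50 kBq at 6 months came next at 0.222. Both pairs differed by more than the noise between spots of 1 array. The arrays of each pair lay on different slides, so the same RNA measured again could differ by that much too. Whether they are separate rats is therefore not settled. They were kept as separate rats, as labelled, and results that rest on them are also given with each pair averaged.

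Over the 13 groups, Nr4a1 covered the widest range of single arrays, 4.88 log2 units, followed by Egr1 with 4.45 and Fos with 4.26. Atf3 covered 3.78 units, Dusp1 3.5, Jun 2.83, Ier3 2.38, Ier2 1.68 and Junb 1.67. Much of that range lay between rats of 1 group. The SD within groups was 0.83 for Egr1, 0.77 for Fos, 0.66 for Atf3 and 0.65 for Nr4a1, but 0.34 for Junb, 0.32 for Ier3 and 0.27 for Ier2. With the 13 group means of a gene in order, a gap between neighbours larger than the SD within groups was seen in 2 of 12 gaps for Fos, in 1 of 12 for Egr1, Ier3, Nr4a1 and Dusp1, and in 0 of 12 for Jun, Junb, Atf3 and Ier2. For these last 4 members no neighbours in the order were further apart than the SD within groups, and for the other 5 at least 1 gap was larger. Small gaps between neighbours do not mean that the ends of the order were close. The Atf3 means, for example, ran from -1.29 to 0.32. The highest Nr4a1 array was one with low thyrocyte markers, and without it, the other such array and the dim array the range was 3.72 for Nr4a1, 3.18 for Dusp1, 2.86 for Atf3, 2.00 for Jun and 1.82 for Ier3. In those 46 arrays Egr1 and Fos had the widest ranges, with the values given above.

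**Figure D2:**
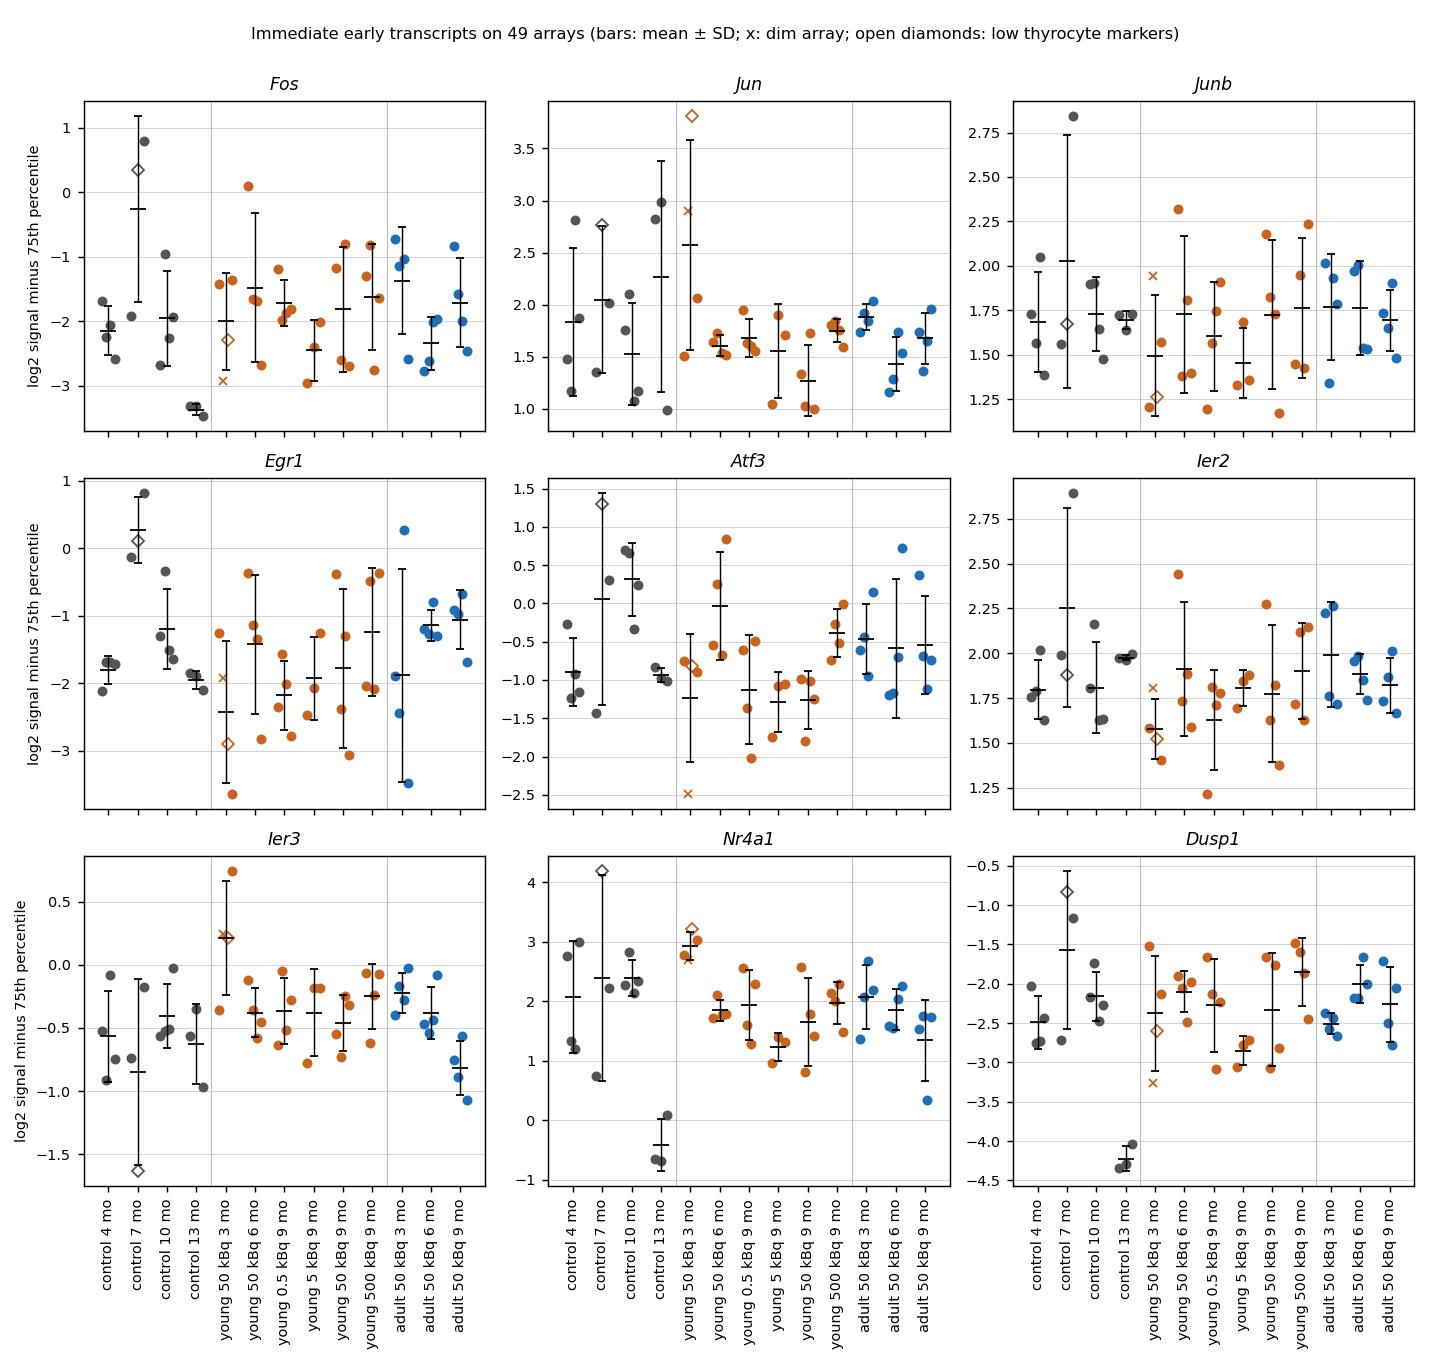
Level of the 9 measured members on each of the 49 arrays (y axis, log2 signal minus the 75th percentile of the array; x axis, the 13 groups; points are arrays, bars the group mean ± SD, the cross the dim array and open diamonds the arrays with low thyrocyte markers). The 3 controls of 13 months are the 3 lowest arrays for Fos, Nr4a1 and Dusp1.

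The controls of 13 months stood at the bottom of the order for Fos, Nr4a1 and Dusp1. Dusp1 was at -4.34, -4.29 and -4.04 in these 3 rats, and the next lowest of the 49 arrays, the dim one, was at -3.26. Nr4a1 was at -0.65, -0.69 and 0.08, and the next lowest array was at 0.33. Fos was at -3.32, -3.31 and -3.47, and the next lowest array was at -2.95. For each of the 3 genes these rats were thus the 3 lowest arrays of the series. The share of all probes with these rats as the 3 lowest arrays was not counted. The gap up to the next group mean was 1.37 log2 units for Dusp1 and 1.64 for Nr4a1, above their SD within groups of 0.49 and 0.65. The remaining members did not share this position. In the same rats Egr1 was at -1.85, -1.90 and -2.11, Junb at 1.72, 1.64 and 1.73, and Ier2 at 1.97, 1.96 and 1.99, all inside the range of other groups. Jun split them, with 2.83 and 2.98 in the like pair and 0.99, the lowest of the 49, in replicate 3.

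The question whether exposure at an adult age altered these genes after 9 months was addressed by comparing 4 exposed rats with those 3 controls. Dusp1 was at -1.72, -2.50, -2.78 and -2.05 in the exposed rats, all above the controls. The difference was 1.96 log2 units, or 3.89-fold higher, with an SE of 0.37 and an adjusted p of 0.00654 by limma with Benjamini-Hochberg adjustment over 24105 probes. A call here is an adjusted p under 0.01 with a change above 1.5-fold. Dusp1 was the single member called of 9, and 0.676% of all probes were called in this comparison in either direction and 0.224% as higher. An exact permutation test on Dusp1 alone gave p = 0.0286, the smallest that 4 rats against 3 allow. None of the 108 exact tests on members passed adjustment, the smallest adjusted value being 0.309.

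Nr4a1 and Fos had differences of similar size with more spread. Nr4a1 was at 1.54, 1.75, 0.33 and 1.74 in the exposed rats, above the controls in each. Its difference was 1.76 with an SE of 0.49 and an adjusted p of 0.0315 by limma. Fos was at -0.83, -1.57, -1.99 and -2.45, again without overlap, with a difference of 1.65, an SE of 0.58 and an adjusted p of 0.0783 by limma. Egr1, at -0.91, -0.98, -0.67 and -1.68, also lay above all 3 controls, but its difference of 0.89 had an SE of 0.62 and an adjusted p of 0.418 by limma. Without overlap were thus 4 of 9 members, beside 26.4% of all probes. Junb differed by -0.0042 with an SE of 0.27, Ier2 by -0.15 with an SE of 0.22, Ier3 by -0.19 with an SE of 0.25, Atf3 by 0.40 with an SE of 0.49 and Jun by -0.59 with an SE of 0.40. Their groups overlapped. The median over the 9 members was 0.40, and that over 12404 genes was -0.09.

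The same 3 controls entered the comparison of ages. Against controls of 4 months, Nr4a1 and Dusp1 were lower in controls of 13 months. Nr4a1 was at 2.75, 1.33, 1.20 and 3.00 in the younger rats, none of which reached down to the older ones, and the difference was -2.49, or 5.62-fold, with an SE of 0.49 and an adjusted p of 0.00171 by limma. Dusp1 was at -2.03, -2.76, -2.73 and -2.44, also without overlap. Its difference was -1.74, or 3.33-fold, with an SE of 0.37 and an adjusted p of 0.00278 by limma. Fos, at -1.68, -2.25, -2.06 and -2.58 in the younger rats, differed by -1.22 with an SE of 0.58 and an adjusted p of 0.123 by limma, and its groups did not overlap. Called were 2 of 9 members, both lower, in a comparison in which 5.78% of all probes were called and 2.36% were called as lower. Groups of 3 of the 9 members did not overlap, and the share of all probes without overlap was not counted for these ages. The other 6 members lay between -0.15 and 0.43 and were not called.

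Because the age comparison and the adult 9 month comparison share the controls of 13 months, their opposite signs are not independent. The adult rats at 9 months were at rank 6 of 13 groups for Dusp1 and for Fos and at rank 11 for Nr4a1, counted from the highest group mean. Their group means, -2.26 ± 0.47 for Dusp1, 1.34 ± 0.68 for Nr4a1 and -1.71 ± 0.69 for Fos (SD, n = 4), lay within the means of the groups other than the controls of 13 months. Means ran from -2.85 to -1.57 for Dusp1, from 1.22 to 2.93 for Nr4a1 and from -2.45 to -0.26 for Fos in those groups.

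These 3 calls depended on arrays that stand apart and on other settings. With the like arrays averaged, the adult 9 month difference of Dusp1 was 1.91 with an adjusted p of 0.0771 by limma, and the age differences were -2.36 with an adjusted p of 0.0238 for Nr4a1 and -1.69 with an adjusted p of 0.0276 for Dusp1, none of them called. Without the dim array and the pair with low thyrocyte markers, which belong to other groups and enter through the shared spread, Dusp1 and Nr4a1 were both called in the adult 9 month comparison, with adjusted p = 9.7e-05 and 0.00287 by limma, beside 9.58% of all probes. In the same fit with 46 arrays the age differences had adjusted p = 4.6e-05 for Nr4a1 and 0.000195 for Dusp1 by limma, beside 23.3% of all probes called. With both steps together, where 2.67% of probes were called in the adult comparison and 11.1% for age, Dusp1 remained called in the exposed rats (adjusted p = 0.00236 by limma), Nr4a1 was not (0.0271), and for age Nr4a1 (0.00128) and Dusp1 (0.00283) were called. Arrays were scanned on 3 days. Within the day that held 2 exposed rats and 2 controls, the adult 9 month difference was 1.94 for Dusp1, 1.98 for Fos and 1.22 for Nr4a1. With the scan date as a block over all days the difference of Dusp1 was 1.90 with an adjusted p of 0.0142 by limma, not a call. Within the pair of days that held both ages the age difference was -1.80 and -1.71 for Dusp1 and -2.33 and -2.79 for Nr4a1.

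Markers of other cell types moved with these groups. The mean deviation over 6 skeletal muscle markers was -3.09, -2.98 and -2.59 in the controls of 13 months, and -0.68 to 0.27 in the controls of 4 months. Replicate 3 of the exposed adults was at -9.08, and the other 3 had a highest value of 0.22. That rat had the lowest Dusp1 and Nr4a1 of its group, and without it the Dusp1 difference was 2.13 (adjusted p = 0.000862 by limma) and the Nr4a1 difference 2.09 (adjusted p = 0.00642 by limma). Muscle markers were also low in replicate 1 of the controls of 7 months (-2.42) and replicate 4 of young 500 kBq (-2.45), and each of these rats again had the lowest Dusp1 and Nr4a1 of its group, with Dusp1 at -2.72 and -2.45 and Nr4a1 at 0.75 and 1.48. Thus the 6 arrays with muscle markers under -2 were the 3 controls of 13 months and the lowest rat of 3 other groups. Over 4 markers of squamous epithelium the controls of 4 months were at 7.11, -0.49, 7.06 and 5.98, while those of 13 months were between -0.90 and 0.23. Over 2 C cell markers the controls of 13 months were between 0.72 and 2.33, above the -5.13 to -0.83 of those of 4 months, and the exposed adults were between -0.17 and 1.63. Over 5 fibroblast markers the controls of 13 months were between -1.53 and -0.55, below the 0.25 to 0.59 of those of 4 months, and the exposed adults were between -0.93 and 0.28. The thyrocyte markers were between 0.76 and 0.96 in the controls of 13 months, above the -0.23 to 0.54 of the exposed adults, and between -1.43 and 0.79 in the controls of 4 months. The squamous markers of the exposed adults were between -1.25 and -0.67. The part of these tissues in the differences was not tested.

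**Figure D3:**
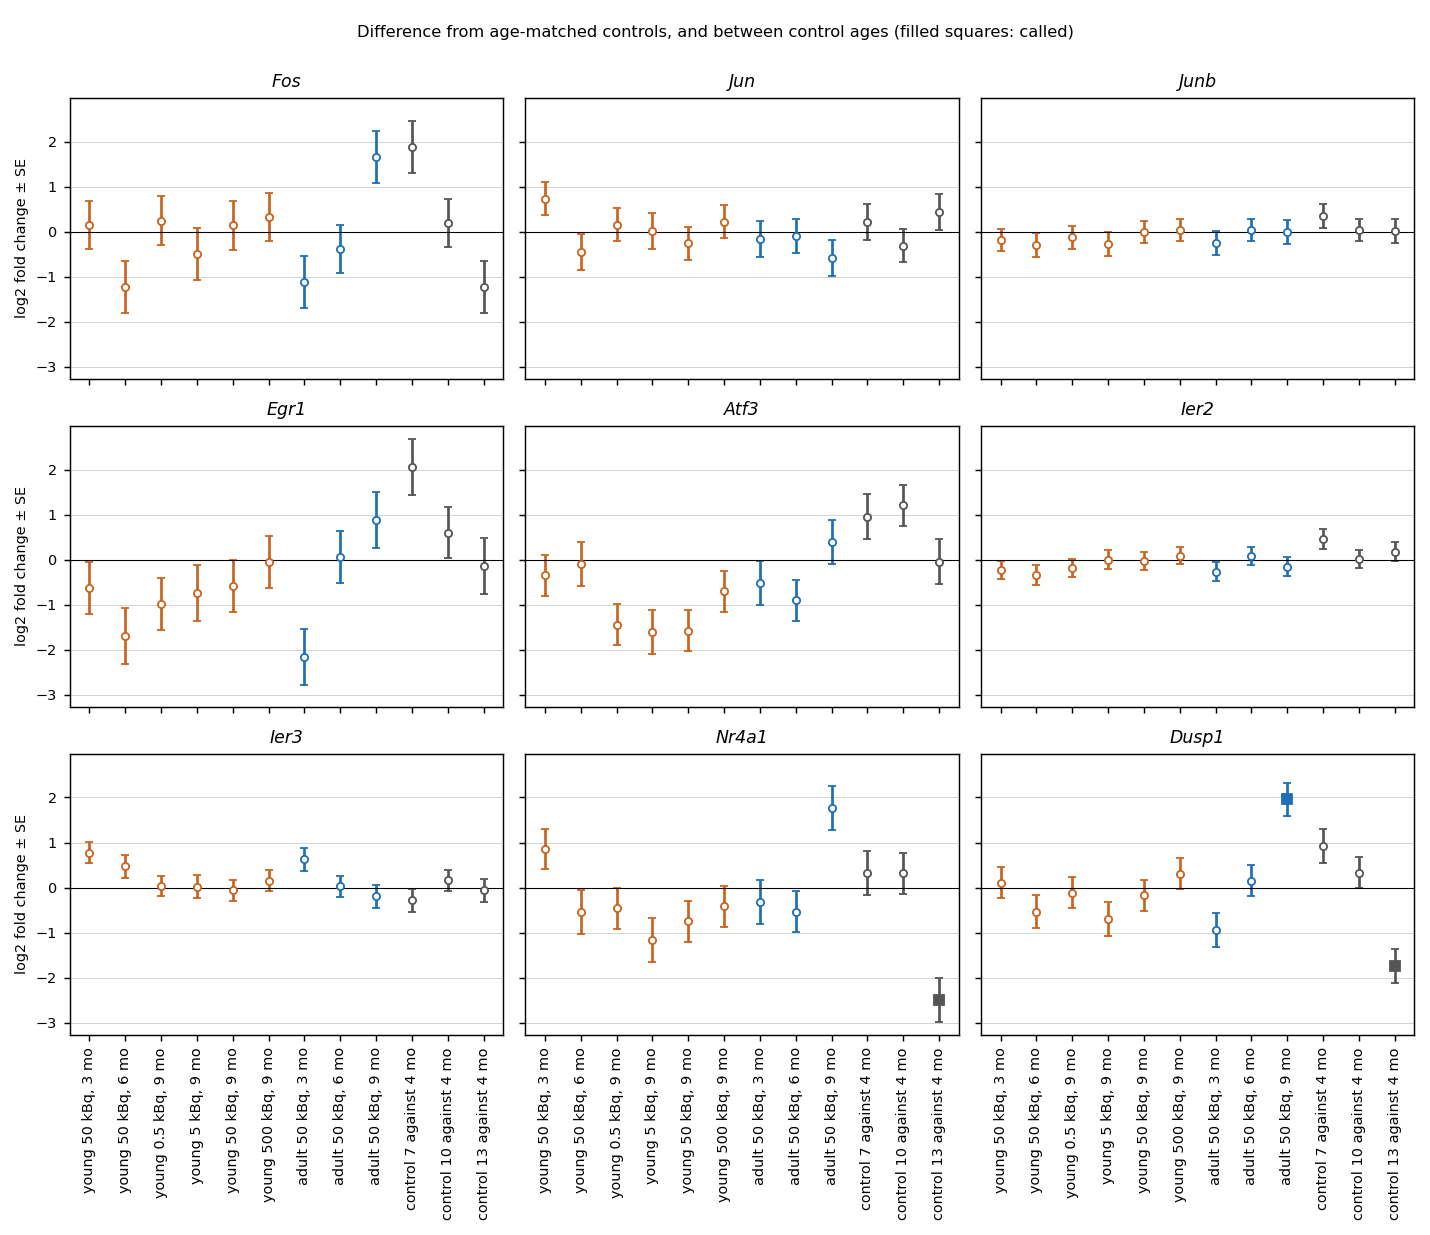
Log2 difference of each member in the 12 comparisons of groups (y axis, exposed minus control of the same age, or older minus youngest control; points with bars are the estimate ± SE, filled squares the called differences). The 3 filled squares are Dusp1 in adult rats at 9 months and Nr4a1 and Dusp1 in controls of 13 against 4 months.

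In the other 8 comparisons of exposed rats with controls no member was called. The share of probes called was 0 for young 50 kBq at 3 and 6 months, young 0.5 and 500 kBq at 9 months and adult 50 kBq at 3 and 6 months. It was 0.0124% for young 5 kBq and the same for young 50 kBq at 9 months. Over all 9 such comparisons, 13 of 81 tests of members had an unadjusted p under 0.05 by limma, 7 of them among the 54 tests in young rats. Of all 216945 tests of probes in these comparisons 8.79% had such a p, and 8.41% of those in young rats. The members without overlap between exposed and control rats were 0 of 9 for young 50 kBq at 3 months (5.45% of probes), 1 at 6 months (7.88%), 1 for 0.5 kBq (1.09%), 3 for 5 kBq (15.6%), 1 for 50 kBq at 9 months (4.13%), 0 for 500 kBq (2.99%), and 0 for adults at 3 months (7.71%) and at 6 months (4.13%).

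Atf3 was the member that recurred across activities in young rats at 9 months. It was at 0.69, 0.66, -0.34 and 0.25 in the controls of 10 months, at -0.61, -1.37, -2.02 and -0.50 after 0.5 kBq and at -1.74, -1.08 and -1.05 after 5 kBq. After 50 kBq it was at -0.98, -1.80, -1.01 and -1.25, and after 500 kBq at -0.74, -0.27, -0.51 and -0.01. All rats given 0.5, 5 or 50 kBq lay below the 4 controls, and those given 500 kBq overlapped them. The differences were -1.44, -1.61 and -1.58 with SEs of 0.46, 0.49 and 0.46, and unadjusted p = 0.00312, 0.00235 and 0.00137 by limma. The exact permutation test gave p = 0.0286 in each, the smallest possible, and the limma values adjusted over all probes were 1.00 in each. At 500 kBq the difference was -0.70 with an SE of 0.46. These 4 comparisons share the controls of 10 months, which had the highest mean Atf3 of the 13 groups, 0.32 ± 0.48 (SD, n = 4). Adults at 6 months after 50 kBq were set against the same controls. Their Atf3 ran from -1.20 to 0.73 with a mean of -0.59, and overlapped the controls. The difference was -0.90, with an unadjusted p of 0.0429 by limma in the fit without the dim array. In the main fit 0 members of that comparison had an unadjusted p under 0.05 by limma.

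Within a scan day the Atf3 differences after 0.5, 5 and 50 kBq were all below 0 but varied in size. On the day that held 3 of the 4 controls they were -1.87, -1.61 and -1.65 for 0.5, 5 and 50 kBq. On the day that held the remaining control they were -0.16, -0.72 and -1.07, and 0.07 for 500 kBq. After 5 kBq Nr4a1 also lay below the controls, at 0.95, 1.40 and 1.32 against 2.26, 2.83, 2.13 and 2.34, a difference of -1.16 with an SE of 0.49 and an adjusted p of 1.00 by limma. Dusp1 at the same activity was at -3.06, -2.78 and -2.71 against -2.16, -1.73, -2.47 and -2.27. Its groups did not overlap, and the difference was -0.69 with an SE of 0.37. The levels did not follow the order of activities, and Dusp1 after 500 kBq was at -1.48, -1.59, -1.87 and -2.45, a difference of 0.31 and an SE of 0.34.

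At 3 months after 50 kBq, Ier3 was the member with the smallest p in young rats. It was at -0.36, 0.25, 0.21 and 0.74 against -0.53, -0.91, -0.08 and -0.74 in controls of 4 months, with 1 exposed rat inside the range of the controls. The difference was 0.78 with an SE of 0.23 and an adjusted p of 0.0260 by limma, not a call. This group held the dim array and an array with low thyrocyte markers. With the dim array left out the difference was 0.76 and the adjusted p 0.147, and without all 3 arrays that stand apart it was 0.76 with an adjusted p of 0.459, both by limma. The mean deviation over 4 cartilage markers was 2.71 to 4.12 in these exposed rats and -0.25 to 2.48 in the controls, without overlap, with no such marker well above background on the dim array. The part of cartilage in the Ier3 values was not tested. Jun was at 1.51, 2.90, 3.82 and 2.06, and its upper values were those same arrays. Nr4a1, at 2.78, 2.68, 3.22 and 3.02, had its highest group mean here, 2.93 ± 0.24 (SD, n = 4), and overlapped the controls of 4 months.

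The controls of 7 months had the highest mean of the 13 groups for Fos, Junb, Egr1, Ier2 and Dusp1. For Dusp1 this rested on the array with low thyrocyte markers. Without the 3 arrays that stand apart their mean was -1.94, at rank 3 behind young 50 kBq at 3 months (-1.83) and young 500 kBq (-1.85), while the other 4 members kept the first place. In those 3 rats Egr1 was at -0.13, 0.11 and 0.82 and Fos at -1.91, 0.35 and 0.79. Young rats at 6 months had Egr1 at -0.37, -1.14, -1.34 and -2.83 and Fos at 0.10, -1.66, -1.68 and -2.67. Egr1 did not overlap and differed by -1.69 with an SE of 0.62 and an adjusted p of 0.544 by limma, and Fos overlapped and differed by -1.22 with an SE of 0.58 and an adjusted p of 0.720 by limma. The Fos difference was -0.70 without replicate 3 of the controls and -2.05 without replicate 1. Adult rats at 3 months had Egr1 at -1.89, -2.44, 0.27 and -3.48, a difference of -2.15 with an SE of 0.62 and an adjusted p of 0.903 by limma. The third of these rats was as high as the controls. Dusp1 differed by -0.94 and Ier3 by 0.63 in the same comparison, both with an adjusted p of 0.978 by limma, and both groups overlapped. Without replicate 2 of the controls, the array with low thyrocyte markers, they were -0.57 and 0.23, Dusp1 was -1.51 without replicate 1, and Ier3 was 0.97 without replicate 3.

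Against controls of 4 months, the controls of 7 months had higher means for 8 of 9 members. The difference was 2.07 for Egr1 with an SE of 0.62, 1.88 for Fos with an SE of 0.58, 0.92 for Dusp1 with an SE of 0.37 and 0.46 for Ier2 with an SE of 0.22. None was called, with adjusted p values of 0.315, 0.325, 0.504 and 0.587 by limma, and 0.00415% of probes were called. Without the array with low thyrocyte markers the differences were 2.14 for Egr1, 1.58 for Fos, 0.64 for Ier2 and 0.55 for Dusp1, in the fit that leaves out all 3 arrays that stand apart. The sign changed for other members. The means of Nr4a1 (1.48 against 2.07) and Jun (1.69 against 1.83) were then lower in the controls of 7 months. That of Ier3 was then higher (-0.46 against -0.56). Single controls of 7 months also moved these values. Without replicate 3 Ier2 differed by 0.14, and without replicate 1 Dusp1 differed by 1.49. Controls of 10 months against 4 months had 0 of 9 members called beside 0.0124% of probes, and Atf3 differed most, by 1.21 with an SE of 0.46 and an adjusted p of 0.922 by limma.

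Whether the 50 kBq effect differed between young and adult rats was tested as the difference between the differences. No member was called at 3, 6 or 9 months, and the share of all probes called was 0 at each time. At 9 months the values were -2.50 for Nr4a1 with an SE of 0.67, -2.13 for Dusp1 with an SE of 0.51 and -1.97 for Atf3 with an SE of 0.67, with adjusted p of 0.158, 0.158 and 0.208 by limma. Nr4a1 and Dusp1 were called without the 3 arrays that stand apart (adjusted p = 0.00630 and 0.00400 by limma, beside 2.43% of all probes) and were not once the like arrays were also averaged (0.0354 and 0.0250). These values contain the controls of 13 months. Of all 135 tests of members in 15 comparisons, 26 had an unadjusted p under 0.05 by limma and 3 were calls, beside 11.6% and 0.433% of all 361575 tests of probes, and 7 of the 9 measured members were called in none.

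Some pairs of members varied together from rat to rat. Deviations of each array from its group mean were correlated between members over the 49 arrays, which share tissue piece, scan and scaling within an array, so the values are a description. Junb and Ier2 had the highest correlation, r = 0.87 (Spearman 0.85), and 0.83 without the 2 arrays with the largest Junb deviations. Egr1 and Ier2 had r = 0.73, and Fos and Egr1 0.54. Dusp1 had r = 0.68 to Nr4a1, 0.67 to Fos and 0.65 to Atf3, and Atf3 and Nr4a1 had 0.59. Fos thus correlated with both Egr1 and Dusp1, and with Ier2 at 0.497. Egr1 and Dusp1 had r = 0.22, Ier2 and Dusp1 0.09, Junb and Dusp1 -0.04, and Junb and Nr4a1 -0.17. Over all 36 pairs of members the median was 0.17 and 7 pairs reached 0.5, while 12.2% of all pairs among 12389 genes did.

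The 3 highest pairs were the same without the arrays that stand apart. With 46 arrays Junb and Ier2 had r = 0.87, Egr1 and Ier2 0.74, Nr4a1 and Dusp1 0.70 and Fos and Dusp1 0.62, and 7 of 36 pairs reached 0.5 against 9.05% of all pairs. Of these, 6 were the same pairs as over 49 arrays, with Fos and Ier2 (0.65) in place of Atf3 and Nr4a1 (0.49). Egr1 and Dusp1 had 0.30 and Ier2 and Dusp1 0.29. Within the 3 scan days, with 23, 13 and 10 arrays, r was 0.85, 0.96 and 0.69 for Junb and Ier2, and 0.78, 0.64 and 0.66 for Nr4a1 and Dusp1. Single arrays show the first pair. Replicate 3 of the controls of 7 months was the highest array for both genes, with Junb at 2.85 and Ier2 at 2.89, and replicate 1 of young 50 kBq at 6 months was next with 2.32 and 2.44. At the low end, replicate 1 of young 0.5 kBq at 9 months had 1.19 and 1.22. Over 49 arrays Ier2 was the gene most like Junb among all genes, and the next, Hsd17b13, had r = 0.61. Dusp1 had no such partner among the members. Its 12 most like genes over 49 arrays had r = 0.73 to 0.76 and held no member, and over 46 arrays Nr4a1 was at rank 9. In the promoters printed above, Junb and Ier2 share the TGACG core, which Dusp1, Nr4a1 and Egr1 also hold.

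**Figure D4:**
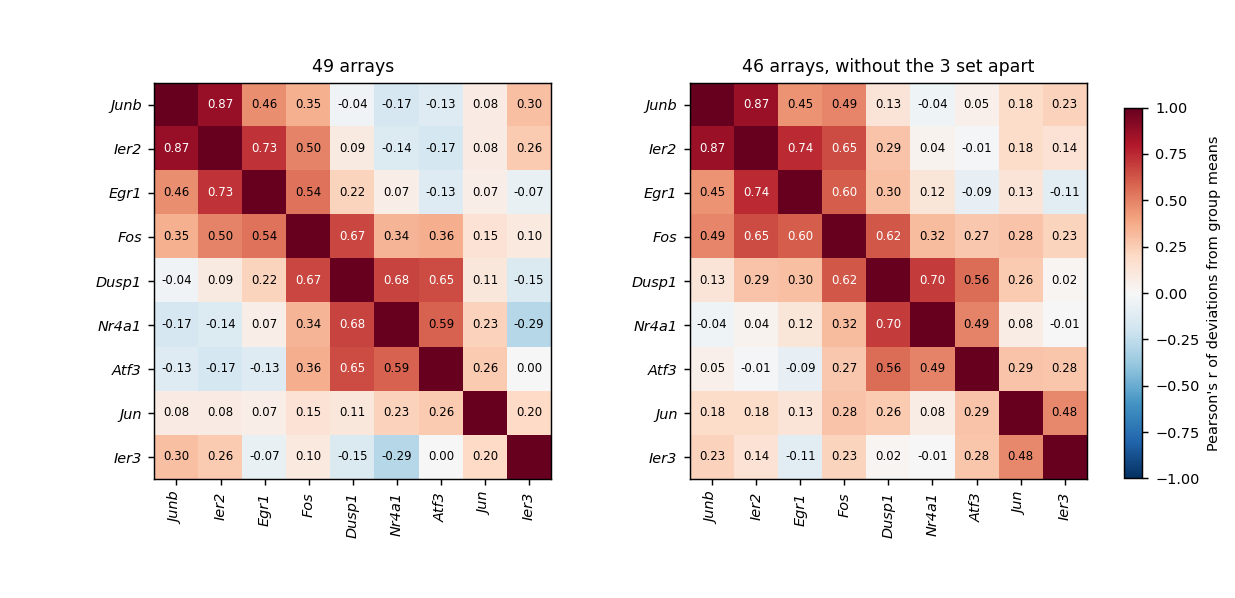
Pearson correlation between members of their deviations from the group means, over all 49 arrays and over the 46 arrays left without those that stand apart (colour scale from -1 to 1). Junb with Ier2 has the highest value in both panels, 0.87.

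**Figure D5:**
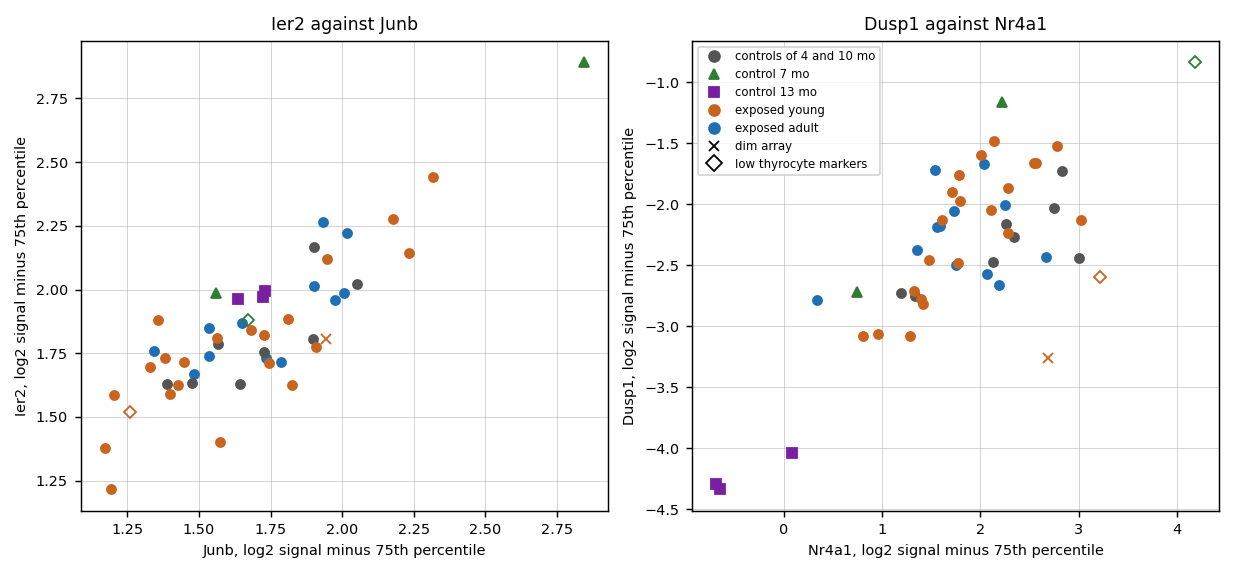
Values of 2 pairs of members on each of the 49 arrays (log2 signal minus the 75th percentile of the array), Junb with Ier2 and Nr4a1 with Dusp1. Replicate 3 of the controls of 7 months is highest for Junb and Ier2, and the 3 controls of 13 months lie together at the low end of Nr4a1 and Dusp1.

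The mean over the 9 members, each centred on its mean over the arrays, was highest in 2 controls of 7 months, at 1.13 in replicate 3, where 9 of 9 members lay above their own mean, and at 1.05 in replicate 2, the array with low thyrocyte markers. It was lowest in replicate 3 of the controls of 13 months, at -0.79. Deviations from the group means were also averaged over the 9 members. Over 49 arrays, the genes outside the list most like that average were led by Ccn1, a rapidly induced matricellular protein gene (r = 0.69). They went on with Sipa1, a Rap1 GTPase activator (0.62), Cd93, a receptor of endothelial cells (0.62), Spetex2f (0.59), the chemokine gene Cxcl1 (0.58), Nxpe1 (0.58), the transcription factor gene Foxs1 (0.57) and Vwa1, an extracellular matrix gene (0.56). Arc, a neuronal immediate early gene, had r = 0.55, and Actr3b, Icam2, an endothelial adhesion gene, and Ushbp1 had 0.54 each. Without the 3 arrays that stand apart, Cxcl1 came first at 0.75 and Ccn1 next at 0.68, and Egr2 (0.63), Ptgs2, the inducible cyclooxygenase (0.59), and the chemokine gene Ccl2 (0.59) entered the 12.

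A wider list of 54 other rapidly induced genes, of which 50 were tested, had calls in 1 comparison. Controls of 13 against 4 months had Trib1, a pseudokinase gene, higher by 1.75 (SE 0.38, adjusted p = 0.00296 by limma), and Arc lower by -2.02 (SE 0.53, adjusted p = 0.00884 by limma). Klf4, a zinc finger factor, was lower by -1.80 (SE 0.45, adjusted p = 0.00640 by limma). With like arrays averaged none of these 3 was called (adjusted p = 0.0348 for Trib1, 0.0666 for Arc and 0.0326 for Klf4 by limma), beside 0.0208% of all probes. The median of the 50 genes there was -0.02 against 0.17 over all genes, and 9 were higher and 11 lower at an unadjusted p under 0.05, in a comparison where 37.8% of genes were past that p. In adults at 9 months the list had no call, a median of 0.08 against -0.09, and 9 genes higher and 5 lower at that p, beside 23.3% of genes. In that comparison Arc differed by 1.66 (adjusted p = 0.0534 by limma) and Trib1 by -1.34 (adjusted p = 0.0331 by limma), with the sign opposite to the age comparison that shares its controls.

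Of 22 genes of the pathways that act on immediate early promoters, 18 were tested. In adults at 9 months Creb1, the factor that binds the cAMP response element, was lower by -1.21 (adjusted p = 0.00389 by limma), the single call of this list there. Controls of 13 months had Creb1 higher than controls of 4 months by 1.13 (adjusted p = 0.00113 by limma). Elk1, a partner of serum response factor, was lower by -1.56 (adjusted p = 0.0028) and Map2k6, a kinase of the p38 pathway, by -1.83 (adjusted p = 0.00682), both by limma. With like arrays averaged none of these 4 differences was called: Creb1 was at -1.06 in the exposed adults (adjusted p = 0.0771) and at 0.98 for age (0.0247), Elk1 at -1.51 (0.0276) and Map2k6 at -1.66 (0.0521), all by limma. Without the 3 arrays that stand apart all 4 were called. The list median was 0.11 in the exposed adults and -0.17 for age, beside -0.09 and 0.17 over all genes.

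Since immediate early genes also vary with time of day and handling, lists of clock, glucocorticoid response and heat shock genes were read beside them. Of 11 clock genes tested, Dbp, a clock output factor, was lower after 5 kBq by -2.26 (adjusted p = 0.00078 by limma) and after 50 kBq at 9 months by -2.05 (adjusted p = 0.00139 by limma), against controls of 10 months in which it was higher than in controls of 4 months by 1.91 (adjusted p = 0.00526 by limma). At an unadjusted p under 0.05 by limma 1 clock gene was higher and 5 were lower after 5 kBq, beside 2.14% of genes. After 50 kBq at 9 months 3 were higher and 3 lower, beside 1.64%. Atf3 was low in these comparisons and also after 0.5 kBq, where no clock gene was called and 3 were lower at that p, beside 1.1% of genes. After 500 kBq, where Atf3 overlapped the controls, no clock gene was called and 3 were also lower at that p, beside 1.77%. In controls of 13 months Nr1d1, the gene of the clock repressor REV-ERB alpha, was lower by -2.87 than in controls of 4 months (adjusted p = 0.00126 by limma). Nr4a1 and Dusp1 were also low there, and 2 clock genes were higher and 2 lower at that p, beside 37.8% of genes. No call was made among 7 glucocorticoid response genes and 5 heat shock genes in any comparison. With like arrays averaged Dbp was still called after 5 and 50 kBq (adjusted p = 0.00167 and 0.00289 by limma), and was not for controls of 10 months (0.0102), nor was Nr1d1 (0.0183). The part of time of day in the members' values was not tested.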

How the data were processed

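Thyroid RNA of 49 rats was hybridised to one-colour Agilent arrays by the authors, and the deposited files hold the spot intensity that Agilent's Feature Extraction software corrected for background, with no scaling between arrays. The submitters' notes name Partek. A series-wide file of the authors' own fold changes was not used. Here log2 intensity minus each array's 75th percentile was averaged over the spots of a probe, control spots left out, for 30367 probes, of which 17998 matched a gene through RefSeq accessions. Probes well above background on at least 3 arrays (24105) were fitted with 13 group means in limma 3.58.1 (R 4.3.3), with Benjamini-Hochberg adjustment per comparison. A call needed an adjusted p under 0.01 and a change above 1.5-fold. The code was tested on simulated data.

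Members and lists were chosen with earlier results of these data known. Named genes are the 10 members, called list genes (at most 8 a comparison), and the 12 genes most like the members' mean within-group deviation. Clock genes fall outside this rule and were picked on their values. Cell type markers were for thyrocytes, C cells, parathyroid, endothelium, muscle, fibroblasts, adipocytes, leukocytes, squamous epithelium and cartilage. The number of arrays limits the precision. Depth has no meaning for arrays.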

Additional observations from a re-analysis of the deposited data

Results flagged for a closer look

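In groups of 4 rats, 1 array lay far from the other 3 in 5 of 90 combinations of member and group, and chance alone gives about 1 in 20. Nr4a1 in replicate 3 of adult 50 kBq at 9 months was at 0.33, below the next rat at 1.54, and this array had the low skeletal muscle markers. Atf3 in replicate 2 of young 50 kBq at 3 months was at -2.49, below the next at -0.89, and this was the dim array, where Atf3 was not well above background. Egr1 in replicate 1 of the controls of 4 months was at -2.11, with the others between -1.72 and -1.68. Ier2 in replicate 1 of young 0.5 kBq at 9 months was at 1.22, with the next at 1.71. Ier3 in replicate 4 of the controls of 10 months was the highest of its group at -0.026, with the next at -0.51.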

How the results depend on the processing

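Log2 differences were recomputed only for the 26 member tests with an unadjusted p under 0.05 by limma in the main fit, 3 of them calls. Of 646 recomputed values, 0 reversed, 603 kept their side of the threshold, 24 lost it and 19 passed it. Differences picked for their size in the same arrays can hardly reverse, so these counts do not describe the members as a whole. Counts of called members stayed the same in 348 of 379 recomputed values. The 1 member called in adults at 9 months became 0 with normexp background correction, without the filter on dim probes, with the scan date as a block, with the replicate block (Dusp1 1.98, adjusted p = 0.0107 by limma), with like arrays averaged and with only the groups of the comparison. It became 2 at an adjusted p under 0.05, without the 2 arrays with low thyrocyte markers and without the 3 arrays, and 4 with array weights. Leaving out 1 rat gave 0 to 2. It was 0 without replicate 1, 2 or 4 of the exposed rats or replicate 1 or 2 of the controls of 13 months, where the adjusted p of Dusp1 was 0.0135 to 0.0607 by limma. The 2 members called in controls of 13 against 4 months became 1 with normexp correction, and 0 with like arrays averaged and with only the groups of the comparison. Leaving out 1 rat gave 0 to 2, with 0 without replicate 1 or 4 of the controls of 4 months or replicate 1 or 2 of those of 13 months. Counts of 0 became 1 in young 50 kBq at 3 months at an adjusted p under 0.05 and 0 to 1 when 1 rat was left out (Ier3 without replicate 1, 0.96, adjusted p = 0.00339 by limma). With array weights they became 3 in young 50 kBq at 6 months, 1 in young 5 kBq, 5 in adults at 3 months, 2 in controls of 7 against 4 months and 3 in the young against adult difference at 9 months, which was 2 without the 3 arrays. In these 5 comparisons the weights also called 0.967%, 0.124%, 1.73%, 0.378% and 25.3% of all probes, and 32.5% in adults at 9 months. The cause was not tested.

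Over all settings Dusp1 lay between 1.16 and 2.18 in adults at 9 months and between -1.95 and -1.02 for age, and Nr4a1 between 1.52 and 2.24 and between -2.93 and -2.18. The count over all probes in adults at 9 months, 163, was 2300 without the 3 arrays, 1180 without the dim array, 641 without the 3 and with like arrays averaged, 0 with like arrays averaged, 14 with the replicate block, 3 with scan date as a block, 30 with normexp, 9 without the filter and 7835 with array weights. For age, 1393 became 5587, 4093, 2658, 5, 866 and 557 under the first 5 of these and normexp. Alternatives that leave arrays out or average them, and the correlations, were chosen after seeing the data. Of 32 pairs of rats with the same replicate number 9 had a correlation of deviations over 0.1. In young 50 kBq at 6 months all 3 pairs did (0.34, 0.33 and 0.16). In no other comparison did all pairs, and values there ran from -0.54 to 0.53, both in adults at 6 months. The labels do not say whether rats with the same number were paired. With the replicate block 0 members and 0 probes were called in young 50 kBq at 6 months, as without it. Apart from adults at 9 months, where the call of Dusp1 was lost, the replicate block changed no count of called members. With normexp the correlation of Nr4a1 and Dusp1 was 0.52 and that of Egr1 and Ier2 0.61. The signals of Fos, Egr1, Atf3 and Dusp1 on the dim array are bounds.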
